A study of Mus musculus with 24 samples.

Results

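The transcriptome of naive mouse embryonic stem cells (ESCs) treated with a MYC inhibitor (MYCi) was set against that of cells given DMSO, the solvent. The comparison was chosen by the labels alone: it holds the 2 MYCi and the 2 DMSO libraries, 4 of the 24 RNA-seq libraries of the series, and all Ensembl genes of their table. The study asks how quiescence, a reversible exit from division, bears on the fate that naive ESCs can take, and MYCi was 1 of 2 treatments used to induce it. Per the methods, naive ESCs in medium with the kinase inhibitors PD0325901 and CHIR99021 and with LIF received a small-molecule MYC inhibitor at 64 µM for 3 days, or DMSO at the same volume. All 4 libraries therefore share an ESC culture whose MEK and GSK3 kinases are inhibited. The labels give no cell line, no genotype and no harvest day for these libraries, and a single compound at a single dose and time was sequenced, so that effects of the compound other than on MYC cannot be told apart from those on MYC. The methods state 2 independent biological replicates for each sequenced group without naming their source, so that the p-values cover no more than the variation among these libraries, which may be technical.

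MYC is a transcription factor that binds DNA only as a dimer with MAX, most often at the E-box CACGTG, and the inhibitor used here is sold as a compound that keeps MYC from pairing with MAX. MXD proteins, MXI1, MNT and MGA compete for MAX and mostly repress the same sites. In many cell types MYC raises ribosome production, nucleotide synthesis, glycolysis and entry into the cell cycle, and in ESCs MYC and the related MYCN support self-renewal.

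The E-box was looked up in promoter windows of 300 bases around the start of transcription, from RefSeq on GRCm38.p6. Only part of the tested genes had such a window. CACGTG is its own reverse complement, so that both strands were read at once, and it was present in the window of 18 of 59 matched MYC target genes of a literature list (30.5%), against 1346 of 11875 matched genes that were tested (11.3%). The share was not particular to MYC targets: it was 47.6% for germline genes (10 of 21), 40% for lysosome and autophagy genes (16 of 40) and 38.9% for PRC1 subunits (7 of 18). The promoters of Cdk4, a G1 kinase and textbook MYC target, of Ldha, the lactate dehydrogenase subunit of glycolytic cells, and of Mxd4, which codes for a competitor of MYC, are shown because they hold the motif and their transcripts moved in opposite directions. They lie at chr10:127063285-127063584 (plus strand), chr7:46845554-46845853 (plus strand) and chr5:34187661-34187960 (minus strand). Capitals mark CACGTG.
Cdk4: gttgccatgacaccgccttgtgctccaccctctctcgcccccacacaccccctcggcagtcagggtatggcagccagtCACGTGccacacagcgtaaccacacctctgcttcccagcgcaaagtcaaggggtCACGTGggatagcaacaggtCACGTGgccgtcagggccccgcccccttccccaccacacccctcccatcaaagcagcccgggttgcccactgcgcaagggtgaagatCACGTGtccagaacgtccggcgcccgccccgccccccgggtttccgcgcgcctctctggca
Ldha: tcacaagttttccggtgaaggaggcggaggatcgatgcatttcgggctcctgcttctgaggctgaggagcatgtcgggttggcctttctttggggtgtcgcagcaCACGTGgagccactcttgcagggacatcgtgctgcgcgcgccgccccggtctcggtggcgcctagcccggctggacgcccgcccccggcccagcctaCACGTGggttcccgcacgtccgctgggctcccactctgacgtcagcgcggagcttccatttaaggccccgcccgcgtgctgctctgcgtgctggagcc
Mxd4: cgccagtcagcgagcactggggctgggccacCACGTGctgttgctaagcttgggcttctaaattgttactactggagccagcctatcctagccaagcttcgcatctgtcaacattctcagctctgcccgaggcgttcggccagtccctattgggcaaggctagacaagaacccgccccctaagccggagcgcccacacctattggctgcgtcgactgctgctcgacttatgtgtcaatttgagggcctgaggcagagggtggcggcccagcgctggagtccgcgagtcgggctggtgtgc
A motif in these windows is a description and not a binding site. Among tested MYC targets with a matched window the median log2 fold change was -0.51 for the 17 with the motif and -0.61 for the 41 without it. Among the 11875 matched genes that were tested it was -0.10 for the 1346 with the motif and -0.08 for the 10529 without it. The other tested genes had no matched window and do not enter these medians.

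The deposited values are FPKM, fragments scaled to transcript length and library size, and the scale on which they are read matters here. The summed FPKM of genes was 376413 and 342898 in the DMSO libraries and 153422 and 184149 in the MYCi libraries. From the steps between low FPKM values, 35.0 and 40.2 M fragments lay over genes with DMSO and 32.2 and 35.2 M with MYCi, which was 94.3% and 87.3% of the fragments behind the FPKM in DMSO but 42.1% and 49.5% in MYCi. Whether the totals behind the FPKM hold an edgeR normalization factor is not known, so that these may not be shares of the sequenced fragments. Repeat loci were centred alike in all 4 libraries, while the median of the 24335 tested genes was lower in MYCi by a log2 fold change of -0.65. This fall grew with the level of the gene, from a median of -0.02 for the 4990 genes under 0.3 FPKM to -0.61 between 1 and 3 FPKM and -1.25 for the 366 genes of at least 100 FPKM. Whether RNA per cell, RNA of other kinds in the library or the normalization moved these values was not tested.

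**Figure D1:**
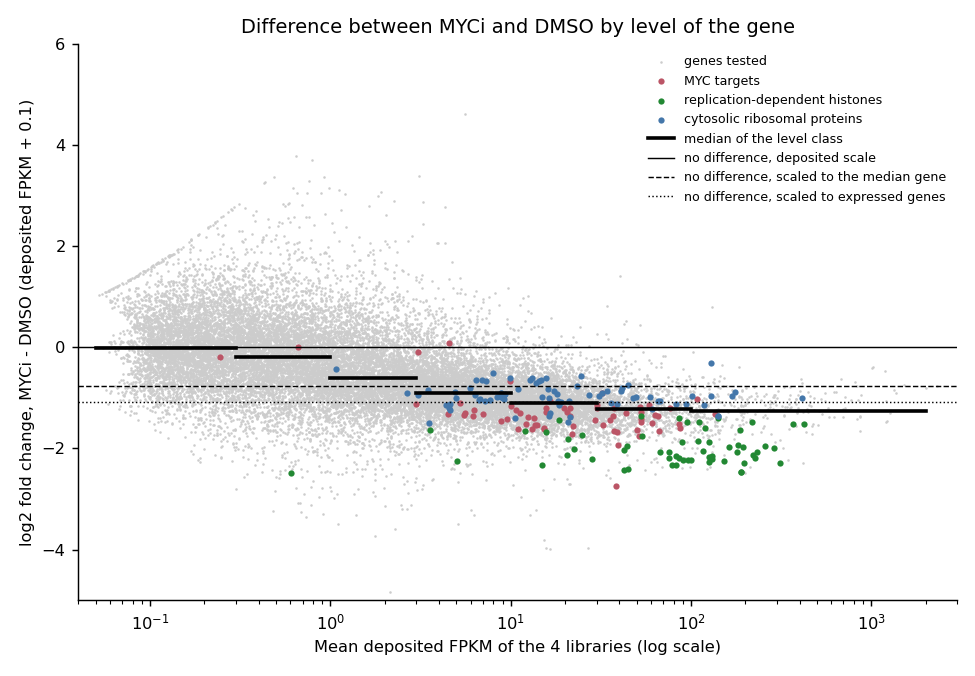
Log2 fold change between MYCi and DMSO on deposited FPKM plus 0.1 (vertical axis) against the mean deposited FPKM of the 4 libraries (horizontal axis, log scale), with 1 point for each tested gene and 3 gene lists in colour. Thick bars are the medians of the level classes, which fall from -0.02 to -1.25, and the thin lines mark where no difference lies on each of the 3 scales.

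Changes are therefore given relative to the median gene, after each library was divided by the median, over tested genes, of its ratio to the mean library. The values as deposited are another scale, and a further one, the expressed-gene scale, added after the level dependence was seen, is relative to the 7755 genes of at least 5 FPKM on average. Between the deposited and the median-gene scale the median gene shifted by 0.68 (log2). On the median-gene scale 6186 genes rose (25.4% of those tested) and 6923 fell (28.4%) at an adjusted p under 0.05 by limma. On the deposited scale 1921 rose (7.89%) and 14055 fell (57.8%), together 65.7%, and on the expressed-gene scale 57% passed in either direction. All 3 scales agreed on 1886 genes that rose (7.75%) and 3469 that fell (14.3%). With 1 library left out these became 1059 to 1706 and 2021 to 2661, with the lowest counts without MYCi 2 and without DMSO 1. Among genes of at least 5 FPKM, 61.8% fell on the median-gene scale and 32.3% on all 3, while 0.748% rose on all 3 (11% and 5.83% of the genes under 5 FPKM rose and fell on all 3), and these shares are the ones to read the highly expressed lists against. Below, "rose" and "fell" refer to the median-gene scale, and log2 fold changes are on log2(FPKM + 0.1), which understates the change of weakly expressed genes. Every gene that fell on the median-gene scale also fell as deposited, so that the expressed-gene scale is the strict one for genes that fell and the deposited scale for genes that rose.

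The cells kept the markers of naive ESCs. The summed FPKM of 8 markers, Pou5f1, Nanog, Sox2, Zfp42, Esrrb, Klf4, Tfcp2l1 and Dppa5a, was 932 and 874 with DMSO and 637 and 647 with MYCi. Fibroblast markers summed to 0.160 to 0.246 over the 4 libraries, with Dcn listed at 0 in each. Of 11 tested genes of a wider fibroblast list 3 rose and 3 fell, 1 and 2 of them on all 3 scales. The 1 was Col5a2, which went from 0.192 and 0.222 FPKM with DMSO to 0.909 and 1.13 with MYCi (1.87). The 2 became 0 or 1 with any library left out. Of the blood and endothelial markers, Hbb-bt was listed at 0 in each library and Ptprc stayed near 0, while Cd68, a lysosomal protein of macrophages, was at 5.46 and 5.75 FPKM with DMSO and at 10.6 and 9.9996 with MYCi. Of 5 tested genes of a wider blood and endothelial list, 2 rose, Cd68 and the endothelial receptor Tek, which went from 0.682 and 0.647 to 2.39 and 2.59 FPKM (1.76) and rose on all 3 scales. The part of other cell types in the results was not tested.

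Myc itself fell. Myc (chr15:61985391-61990374, GRCm38) was at 4.7995 and 4.25 FPKM in the DMSO libraries and at 1.62 and 1.69 in the MYCi libraries, so that the groups lay well apart. The mean level in MYCi was 0.366 times that in DMSO (log2 fold change -1.40, SE 0.09, adjusted p = 0.00117), and it fell on all 3 scales. Mycn, which had the highest level of the 3 MYC family genes, was at 35.4 and 31.2 FPKM with DMSO and 29.3 and 30.1 with MYCi. Its difference of -0.16 (SE 0.07) did not pass on the median-gene scale (adjusted p = 0.118), passed as a fall on the deposited scale (-0.93), and was 0.15 on the expressed-gene scale. Without DMSO 2, Mycn passed at -0.26. Mycl, the remaining member, was at 5.53 and 5.29 with DMSO and at 3.58 and 3.80 with MYCi and fell by 0.54 (adjusted p = 0.0031), and on all 3 scales. The 3 family members were thus not moved alike by these tests, with the smallest change in the one of highest level.

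Among their partners, Max went from 22.1 and 22.7 to 16.7 and 19.01 FPKM (-0.33, adjusted p = 0.0198), a call lost without DMSO 1 or DMSO 2 and on the expressed-gene scale (-0.02). Of the competitors for MAX, Mxd4 rose on all 3 scales from 0.128 and 0.145 to 0.600 and 0.632 FPKM, a low level throughout (1.60, SE 0.16, adjusted p = 0.00233). Mxi1 moved the other way (-0.43), and Mnt, at 9.49 and 8.36 with DMSO and 8.52 and 9.02 with MYCi, overlapped between the groups. Ruvbl1 and Ruvbl2, ATPases that work with MYC on chromatin, fell by 0.71 and 0.79, and on all 3 scales. Of the 22 genes of the MYC network, 3 rose and 13 fell (59.1%, against 61.8% of genes of at least 5 FPKM). Myc, Mycl, Ruvbl1, Ruvbl2 and Mlxip were the 5 that fell on all 3 scales (22.7%, against 32.3%). Without DMSO 1 the 13 became 8, and with any library left out the 3 became 1, while the 5 became 3 or 4.

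**Figure D2:**
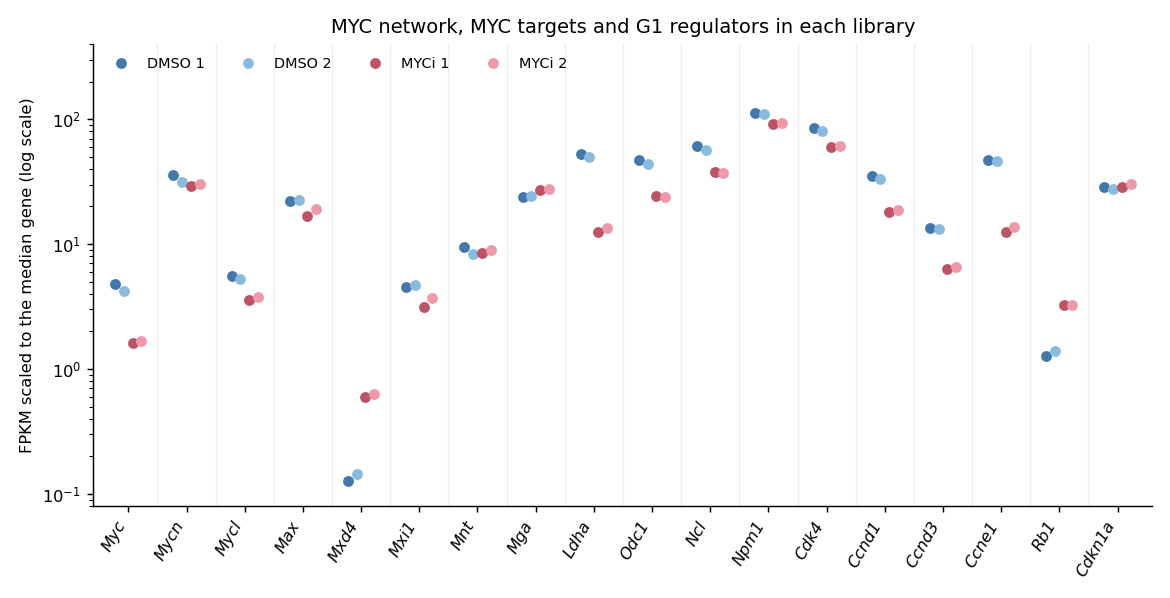
FPKM scaled to the median gene (vertical axis, log scale) of MYC network genes, MYC targets and G1 regulators in the 2 DMSO and the 2 MYCi libraries, 1 point per library. Myc, Mycl, Ldha and Ccne1 lie lower in both MYCi libraries, Mxd4 and Rb1 lie higher, and Mycn and Cdkn1a change little against the spread of their replicates.

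Genes that MYC is known to activate were lower as a group. Of 65 tested MYC targets, 60 fell and 3 rose (Sord, Map3k6 and Tert), with a median log2 fold change of -0.58 against 0.03 over all genes. On all 3 scales 50 fell and none rose, and with 1 library left out 33 to 39 fell, the lowest without DMSO 2. Their share on all 3 scales can be set beside the 32.3% of genes of at least 5 FPKM. Odc1, the first enzyme of polyamine synthesis, went from 46.9 and 43.9 FPKM with DMSO to 24.1 and 24.0 with MYCi (-0.91, SE 0.05, adjusted p = 0.00113). Ncl, the nucleolar protein nucleolin, went from 61.1 and 57.1 to 38.0 and 36.9 (-0.66). Cdk4, whose promoter holds 4 E-boxes, went from 84.4 and 79.7 to 60.01 and 60.9 (-0.44), and Npm1, a nucleolar chaperone, from 112 and 110 to 91.6 and 93.3 (-0.26). The first 3 fell on all scales, whereas Npm1 was at 0.05 on the expressed-gene scale and lost its call without DMSO 1 or MYCi 1.

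Genes that build ribosomes were mostly lower with MYCi. Of 67 ribosome assembly genes 63 fell and none rose by limma, with a median of -0.47. On all 3 scales 34 fell, and 19 to 30 with 1 library left out, the lowest without DMSO 1. Wdr46, a nucleolar scaffold protein, went from 18.0 and 16.4 to 8.83 and 8.79 FPKM (-0.96), and Bop1, of the large subunit pathway, from 36.4 and 33.5 to 18.2 and 18.8 (-0.91). Of 36 genes of RNA polymerases I and III, which make ribosomal RNA and tRNA, 25 fell (69.4%) and 4 rose, and 13 fell on all 3 scales (36.1%). With 1 library left out, whichever it was, these counts became 22 or 23, 0 to 2, and 6 to 8. The shares lie near the 61.8% and 32.3% of all genes of at least 5 FPKM. Polr3g, the form of an RNA polymerase III subunit that ESCs use, went from 24.2 in both DMSO libraries to 12.4 and 12.6 with MYCi (-0.95), and Rrn3, an RNA polymerase I initiation factor, fell by 0.73.

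Cytosolic ribosomal proteins gave another picture. Of 79 tested, 34 fell and 1 rose, with a median of -0.20, and the 34 became 17 without DMSO 1 and 20 without MYCi 1. On the expressed-gene scale 24 rose and 9 fell, so that no common direction was found across the scales. Many ribosomal protein genes have processed copies that share fragments with them. Among 44 translation factors, with a median level of 32.6 FPKM, 35 fell (79.5%) and 22 fell on all 3 scales (50%). These shares lie near the 76.1% and 49.5% of all genes of 30 to 100 FPKM. The 2 that rose were Eif4g3 and Pdcd4. Eif4g3, a scaffold of the cap-binding complex, went from 0.852 and 0.620 FPKM to 5.99 and 6.30, and Pdcd4, an inhibitor of the eIF4A helicase, from 2.77 and 2.21 to 6.68 and 6.17. Both rose on all 3 scales, a count of 2 that became 1 without DMSO 2, MYCi 1 or MYCi 2. Eif1ax, a start codon recognition factor, went the other way, from 6.42 and 6.33 to 2.49 and 2.67 FPKM (-1.27).

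Glycolysis genes were lower, several of them strongly. Ldha went from 52.9 and 49.8 FPKM with DMSO to 12.5 and 13.4 with MYCi, 0.252 times the mean DMSO level (log2 fold change -1.98, SE 0.06, adjusted p = 0.00112). Pfkl, liver phosphofructokinase, went from 10.015 and 9.36 to 2.46 and 2.68 (-1.87), and Tpi1, triosephosphate isomerase, from 44.9 and 44.7 to 12.8 and 15.3 (-1.67). Hk2, which feeds glucose into the pathway, fell by 0.71. These 4 fell on all 3 scales. Of 26 tested genes 20 fell and 3 rose, the strongest rise being that of Pfkfb2 (1.42), whose product regulates phosphofructokinase, and 15 fell on all 3 scales. The 3 became 1 without MYCi 1 or MYCi 2. Pdk1, a pyruvate dehydrogenase kinase, went from 9.73 and 9.31 to 2.996 and 3.21 (-1.59). Of 30 genes of the tricarboxylic acid cycle and its entry, Pdk1 among them, 25 fell and 1 rose, and 16 fell on all 3 scales (10 without DMSO 1 and 8 without DMSO 2). Of 73 respiratory chain genes 55 fell and 2 rose, with 31 lower on all 3 scales (20 without DMSO 1), and the 2 became 0 with any library left out. Of all genes of 10 to 30 FPKM, where the median levels of these 2 lists lay, 66.8% fell, and 35.5% on all 3 scales. The respiratory chain shares were 75.3% and 42.5%, and those of the tricarboxylic acid cycle 83.3% and 53.3%.

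Most genes of nucleotide synthesis and of serine and folate metabolism fell. Of 34 genes of purine and pyrimidine synthesis 30 fell and 4 rose, with 22 lower on all 3 scales, and the 4 became 1 or 2 with any library left out. Rrm2, a ribonucleotide reductase subunit of S phase, went from 60.1 and 56.2 to 26.7 and 27.8 FPKM (-1.09), and Ppat, the first enzyme of purine synthesis, from 46.3 and 44.8 to 23.0 and 24.8 (-0.93). Of 15 polyamine genes 11 fell (73.3%) and none rose, and 8 fell on all 3 scales (53.3%). Of all genes of 10 to 30 FPKM 66.8% fell, and 35.5% on all 3 scales. Of 23 genes of serine, glycine and folate metabolism 18 fell and 2 rose, with 13 lower on all 3 scales. Phgdh and Psat1, the first steps of serine synthesis, fell by 0.75 and 0.69, and Shmt2 and Mthfd2, the mitochondrial folate enzymes, by 0.58 and 0.74. Mat2a, which makes S-adenosylmethionine (SAM), the methyl donor, went from 43.4 and 42.6 to 30.6 and 29.5 (-0.52, SE 0.04, adjusted p = 0.00166) and fell on all 3 scales. Of 13 methionine cycle genes 7 fell, 53.8% and so no more than among genes of at least 5 FPKM, and 1 rose, and 3 fell on all 3 scales (1 without DMSO 1 or DMSO 2).

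Lipid and redox genes did not share a direction. Of 28 fatty acid oxidation genes 9 rose and 9 fell, and the members that rose on all 3 scales were Cpt1b and Cpt1c, named for carnitine palmitoyltransferase, which admits fatty acids to mitochondria, at 2.25 and 1.48 (1 of them without DMSO 2). Cpt1b went from 0.312 and 0.355 to 1.97 and 1.94 FPKM. Of 31 glycerolipid genes 10 rose and 12 fell, among them Plin2, a coat protein of lipid droplets, which went from 10.2 and 10.4 to 25.7 and 26.5 (1.34), and these counts became 6 and 6 without DMSO 1. Of 36 cholesterol genes 9 rose and 10 fell, and 1 rose and 2 fell on all 3 scales. Without DMSO 1 the 9 and 10 became 3 and 6, and the 9 became 4 without DMSO 2 and 5 without MYCi 2, the 10 became 6 without MYCi 1. Of 33 glutathione and NRF2 genes 12 rose and 9 fell, and Osgin1, Srxn1, Slc7a11 and Gpx2, genes of the oxidant response, rose on all 3 scales by 2.35, 1.44, 1.43 and 1.31, a count of 4 that became 2 without DMSO 1 or DMSO 2. Of 10 pentose phosphate genes 5 fell and 1 rose, with Taldo1 and Tkt, of the nonoxidative branch, lower on all 3 scales.

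Cell cycle genes fell, at every phase. All 40 genes of G2 and mitosis fell on the median-gene scale, with a median of -0.71, and 32 on all 3 scales. Ccnb2 went from 54.4 and 52.1 FPKM to 21.8 and 23.5 (-1.23), Cdc20, an activator of the anaphase-promoting complex, from 49.3 and 47.0 to 21.4 and 21.8 (-1.15), and Cdk1, the mitotic kinase, fell by 0.97. Of 54 genes of replication and S phase 52 fell and none rose, with a median of -0.74 and 42 lower on all 3 scales. Cdc6 and Mcm10, which load and fire origins, fell by 1.19 and 1.21, and Mcm2 by 0.83. Mitotic transcripts were still well detected, with Ccnb1, or cyclin B1, at 36.4 and 36.2 FPKM with DMSO and at 21.8 and 23.6 with MYCi.

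Of the 9 G1 cyclins and kinases, Ccne1, or cyclin E1, had the largest change. It went from 46.8 and 46.6 FPKM with DMSO to 12.5 and 13.7 with MYCi (-1.83, SE 0.06, adjusted p = 0.00112). Of the D cyclins, Ccnd1 went from 35.3 and 33.3 to 18.2 and 18.8 (-0.89) and Ccnd3 from 13.5 and 13.1 to 6.36 and 6.53 (-1.04), while Ccnd2 lay at 0.196 to 0.297 FPKM in all libraries and did not pass (0.36, adjusted p = 0.126). Of the 9, 8 fell, and 7 on all 3 scales.

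Of 17 CDK inhibitors and pocket proteins, the brakes of the cycle, 5 rose and 4 fell, and on the expressed-gene scale 11 rose and 2 fell. The 4 became 2 without MYCi 1 or MYCi 2. Cdkn1a, which codes for p21, was at 28.5 and 27.8 FPKM with DMSO and at 28.7 and 30.1 with MYCi (0.06, adjusted p = 0.296), and Cdkn1b, p27, was at 8.45 and 7.003 with DMSO and 8.02 and 8.53 with MYCi, where the groups overlapped (0.10, adjusted p = 0.431). Both passed as a fall on the deposited scale and as a rise on the expressed-gene scale. Cdkn2b (0.89) and Cdkn1c (0.73) rose on the median-gene scale, with 0.15 and 0.00 as deposited. Rb1, the retinoblastoma protein that holds E2F factors in check, was the single member of 17 that rose on all 3 scales, from 1.28 and 1.40 to 3.25 and 3.26 FPKM (1.22, SE 0.08, adjusted p = 0.00127). That count of 1 became 0 without DMSO 1, DMSO 2 or MYCi 2.

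Replication-dependent histones, whose messages are made in S phase and mostly lack a poly(A) tail, formed the list with the lowest median, -1.30. Of 59 tested genes 58 fell and none rose, and 56 fell on all 3 scales. Hist1h2bm went from 57.5 and 52.8 FPKM to 16.9 and 17.8 (-1.66). These libraries were made from total RNA without selection for poly(A), and near-identical histone genes share fragments, so that single members are uncertain.

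**Figure D3:**
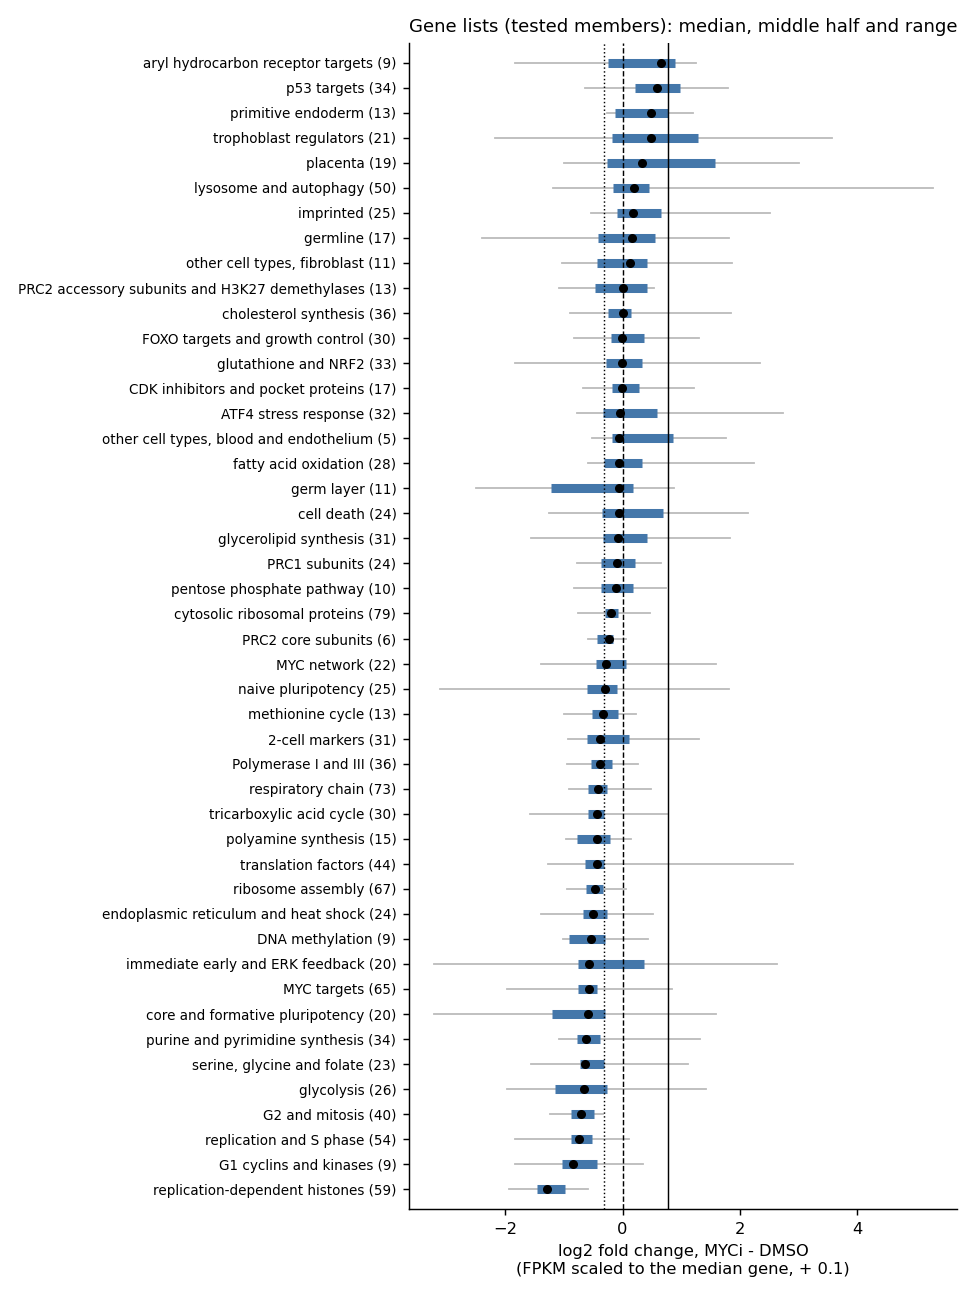
Log2 fold change between MYCi and DMSO on FPKM scaled to the median gene (horizontal axis) of the tested members of 46 gene lists, with the number of members in parentheses. Points are medians, thick bars the interquartile range of the members and thin lines their range. The dashed, dotted and solid vertical lines mark no difference on the median-gene, expressed-gene and deposited scales, and the medians run from -1.30 for histones to 0.65 for aryl hydrocarbon receptor targets.

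Targets of p53, which halts division or kills damaged cells, mostly rose on the median-gene scale. Of 34 p53 targets 24 rose and 4 fell, with a median of 0.59. As deposited 6 rose and 11 fell, and the 6 that rose on all 3 scales (3 without DMSO 2) were Ddit4l, Plk2, Btg2, Perp, Fas and Trp53inp1. Plk2, a stress kinase, went from 6.42 and 6.12 to 22.0 and 21.6 FPKM (1.78), and Btg2, which restrains proliferation, from 7.37 and 6.97 to 20.5 and 20.0 (1.49). Atf3 and Jun, which code for partner transcription factors induced by stress, rose from 0.522 and 0.627 to 4.40 and 4.42 (2.75) and from 0.495 and 0.509 to 3.68 and 3.58 (2.63). The name Ddit3, a stress factor also called CHOP, is carried by a pair of Ensembl genes, and both rose (1.36 and 2.098). Asns, asparagine synthetase, another target of ATF4, did not pass at -0.16 (adjusted p = 0.096). Of 32 ATF4 response genes 13 rose and 11 fell, and the 6 that rose on all 3 scales became 3 without DMSO 1 or DMSO 2 and 2 without MYCi 2. Chaperones of the endoplasmic reticulum and the heat shock response fell in 17 of 24 cases (70.8%) and rose in 1. The median level of the list was 20.9 FPKM, and of all genes of 10 to 30 FPKM 66.8% fell. On all 3 scales 12 of the 24 fell (50%), against 35.5% of that class. Hspa5, or BiP, went from 55.7 and 53.3 to 33.1 and 34.1 (-0.69).

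Of 24 cell death genes 9 rose and 9 fell, and the latter became 5 without DMSO 1, DMSO 2 or MYCi 1. Hrk, a BH3-only activator of apoptosis, rose from 0.0973 and 0.148 to 0.828 and 0.935 FPKM (2.15), whereas Bak1 and Bok, which form pores in the mitochondrial membrane, fell by 1.25 and 1.15. Among 50 lysosome and autophagy genes 22 rose and 12 fell. Gpnmb, a lysosomal membrane glycoprotein, and Hexa, a hexosaminidase subunit, were the 2 that rose on all 3 scales (1 without DMSO 1, DMSO 2 or MYCi 2), and Hexa went from 16.0 and 15.9 to 36.3 and 36.0 (1.17). Of 30 FOXO and growth control genes 10 rose and 10 fell, and Irs2, an insulin receptor substrate, was the 1 that rose on all 3 scales (1.30), a count of 0 without DMSO 1 or DMSO 2. The 10 that fell became 4 without either of those libraries and 6 without MYCi 2.

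Polycomb repressive complex 2 (PRC2) methylates histone H3 at lysine 27, using SAM, and silences developmental genes. Its catalytic subunit Ezh2 went from 16.0 and 15.5 FPKM to 11.1 and 11.4 (-0.48, SE 0.04, adjusted p = 0.00182), and Ezh2 and Rbbp4, a histone chaperone (-0.59), fell on all 3 scales. Eed went from 16.3 and 15.3 to 13.9 and 13.8 (-0.19, adjusted p = 0.0281) and Suz12 from 67.1 and 64.4 to 58.1 and 60.02 (-0.16, adjusted p = 0.0491). On the expressed-gene scale these were 0.12 for Eed and 0.16 for Suz12, the latter passing as a rise, and with 1 library left out Suz12 lost its call in all 4 cases and Eed in 3, without DMSO 1, MYCi 1 or MYCi 2. Ezh1, the other catalytic subunit, did not pass (0.06, adjusted p = 0.465). Of 6 core subunits 5 fell, 2 without DMSO 1 or MYCi 1 and 3 without MYCi 2, and the 2 lower on all 3 scales became 0 without DMSO 1 and 1 without DMSO 2. Of 13 accessory subunits and H3K27 demethylases 5 rose and 5 fell, with a median of 0.01, and the 5 that rose became 2 without DMSO 1 and 3 without MYCi 1 or MYCi 2. Lcorl had the largest rise of these (0.54, lost without DMSO 1 or MYCi 1). Epop and Elob, which join PRC2 in ESCs, went from 61.1 and 56.6 to 27.6 and 28.1 (-1.08) and from 39.9 and 38.1 to 18.7 and 20.2 (-1.002). Of the DNA methylation genes, Uhrf1, which brings DNMT1 to replicated DNA, Dnmt3b, Tet2 and Dnmt3l fell on all 3 scales.

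Pluripotency genes stayed well detected. Nanog went from 174 and 163 FPKM with DMSO to 97.0 and 99.6 with MYCi (-0.78, SE 0.06, adjusted p = 0.00151), Pou5f1 from 134 and 123 to 85.7 and 82.9 (-0.61), and Zfp42 from 105 and 97.8 to 72.8 and 68.9 (-0.52). Those 3 fell on all 3 scales. Esrrb (-0.37), Sox2 (-0.23) and Klf4 (-0.23) did not fall on the expressed-gene scale, and Sox2 and Klf4 lost their calls without DMSO 1, MYCi 1 or MYCi 2. Of 20 core and formative genes 17 fell, with Otx2, a factor of formative cells, the single member to rise (1.60), and of 25 naive genes 16 fell and 2 rose. The naive share of 64% lies near the 61.8% of all genes of at least 5 FPKM. On all 3 scales 11 and 10 fell, and the 10 became 6 without DMSO 1, MYCi 1 or MYCi 2. Dppa3, expressed in germ cells and early embryos, rose on all 3 scales from 2.60 and 2.29 to 8.42 and 9.30 FPKM (1.82). Lin28a, a regulator of let-7 miRNAs, went from 23.5 and 22.7 to 7.17 and 8.83 (-1.53).

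Some signalling genes were lower with MYCi. Etv4, an ETS factor that ERK induces, went from 22.7 and 22.3 FPKM to 2.17 and 2.51 (-3.22), and Spry4, a feedback inhibitor of the same pathway, from 2.62 and 2.50 to 0.167 and 0.255 (-3.11). Of 20 immediate early and ERK feedback genes, whose median level was 3.30 FPKM, 10 fell (50%) and 4 rose. Of all genes of 3 to 10 FPKM 42.8% fell, and of those of at least 5 FPKM 61.8%. On all 3 scales 9 of the 20 fell (45%), against 16.8% and 32.3% of the same 2 classes of genes. Jun and Dusp5 (1.69) rose on all 3 scales, a count of 2 that became 1 without MYCi 2. Lefty2 and Lefty1, antagonists and targets of NODAL, fell by 1.87 and 1.61, while Gsc, another target of NODAL, rose (0.88), a call lost without DMSO 2, MYCi 1 or MYCi 2. T, the Brachyury gene and a WNT target, went from 3.26 and 3.77 to 0.450 and 0.635 (-2.50). Bmp4, a signal of the BMP pathway, fell by 2.18. Of 11 tested germ layer genes 4 fell on all 3 scales (2 without DMSO 1 or MYCi 1) and none rose on all 3.

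On the median-gene scale markers of the 2-cell embryo were more often called lower than higher, and most of the lower calls were lost without some libraries. Of 50 genes in the list 31 were tested, and 2 rose and 11 fell (35.5%), with a median of -0.38. Of all tested genes 28.4% fell, and 7.69% of those of 0.3 to 1 FPKM, where the median level of the list lay. The 2 became 0 or 1 with any library left out, and the 11 became 1 without MYCi 2, 2 without DMSO 1 and 4 without MYCi 1. Zscan4f went from 2.01 and 2.34 FPKM to 1.64 and 1.52 (-0.43, adjusted p = 0.0277), a call lost without DMSO 2, MYCi 1 or MYCi 2, and Gm4340 from 0.681 and 0.470 to 0.235 and 0.263 (-0.94), a call lost without DMSO 1, MYCi 1 or MYCi 2. On the expressed-gene scale 3 rose and 2 fell, and the 2 lower on all 3 scales became 0 with any library left out. Duxf3, the Dux gene that drives this programme, was under the filter at a deposited FPKM of 0.0225 and 0.0181 with DMSO and 0.00726 and 0.00782 with MYCi. A separate row named for the MERVL retroelement was at 0.0419 and 0.0454 deposited FPKM with DMSO and at 0.0516 and 0.0502 with MYCi, and the 2600 MERVL internal loci averaged 0.343 and 0.343 per locus against 0.348 and 0.363. On the median-gene scale the row was at 0.0312 and 0.0357 with DMSO and 0.0723 and 0.0611 with MYCi, and the loci at 0.256 and 0.27 against 0.488 and 0.442. Both were thus higher with MYCi on that scale, while the loci were close to level as deposited. That scale divides the DMSO libraries by 1.34 and 1.27 and the MYCi libraries by 0.713 and 0.822. Repeat loci of all kinds, centred alike as deposited (median log2 deviations -0.004, -0.008, 0.075 and 0.059), are therefore lifted with MYCi by construction. The rise on that scale is not particular to MERVL. The MERVL values were not tested. Members of the Zscan4 and related families are near-identical and share fragments.

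Trophoblast genes split. Of 21 tested regulators 11 rose and 3 fell, with a median of 0.48, and 6 rose and 3 fell on all 3 scales. The 6 were Gata2, Sox21, Krt8, Krt18, Krt19 and Cldn4. Krt19, a keratin, went from 0.325 and 0.378 FPKM to 5.21 and 5.32 (3.57), Sox21 from 1.35 and 1.18 to 5.45 and 5.72 (2.06), and Gata2, a factor of trophoblast giant cells, from 0.121 and 0.215 to 1.28 and 1.19 (2.34). Cdx2, the factor that sets up the trophectoderm, went the other way, from 3.35 and 2.62 to 0.990 and 1.16 (-1.39, adjusted p = 0.00313). Eomes did not pass (0.15, adjusted p = 0.304), and Tfap2c was at 0.27, a rise on the median-gene scale and a fall of -0.49 as deposited, whose call was lost without any 1 of the 4 libraries. Elf5 stayed under 0.1 FPKM in all libraries. Of 43 placenta genes 19 were tested, and 6 rose on all 3 scales, with Hsd17b2, a steroid dehydrogenase, at 3.01.

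The imprinted neighbours Igf2, a fetal growth factor, and H19, a noncoding RNA, were among those 6. Igf2 (chr7:142650766-142666816) went from 0.506 and 0.498 FPKM to 3.30 and 3.42 (2.52), and H19 (chr7:142575529-142578143) from 0.478 and 0.452 to 2.61 and 3.25 (2.42). Gm27483, a short RNA at chr7:142576853-142576923, lies within H19 on the other strand, and since counting took no account of strand its fragments cannot be told from those of H19. Of 25 tested imprinted genes 11 rose and 5 fell, 3 and 1 on all 3 scales, and Kcnq1ot1, another imprinted noncoding RNA, also rose on all 3 (1.30). The 11 became 7 without DMSO 1 or DMSO 2, and the 1 became 0 with any library left out.

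Over the whole table, 121 genes of at least 5 FPKM in a group rose on both the median-gene and the deposited scale, and 4952 fell. The largest rise among the 121 was that of Gpnmb (chr6:49036546-49070929), which went from 0.261 and 0.260 FPKM to 13.9 and 14.1, 53.7 times the mean DMSO level (log2 fold change with the pseudocount 5.29, SE 0.07, adjusted p = 0.000883). S100a1, a calcium-binding protein, followed at 3.58, then Krt19, Pdzrn4 (3.50), Ahnak2 (3.16), Eif4g3, 1700001F09Rik (2.82), Sstr5, a somatostatin receptor (2.81), P2rx7, an ATP-gated channel (2.80), and Gm27483 (2.80).

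The largest falls among the 4952, of which 9 are given, were led by Pou2f3 and Etv4, both transcription factors. Pou2f3 went from 22.9 and 24.6 FPKM to 2.14 and 2.72 (-3.24), and Cdx1, a target of WNT, from 38.3 and 39.2 to 3.84 and 4.41 (-3.21). Itga5, the fibronectin receptor subunit, Fstl1, a secreted glycoprotein, Nkx1-2, a homeobox factor, and Mymx, a fusion peptide of muscle, fell, with values of -2.58, -2.56, -2.49 and -2.46. Gm12463 (-2.77) and Gm15428 (-2.21) are annotated as processed pseudogenes, which can share fragments with their parent genes. All 9 fell on all 3 scales, and none lost its call when any 1 library was left out.

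**Figure D4:**
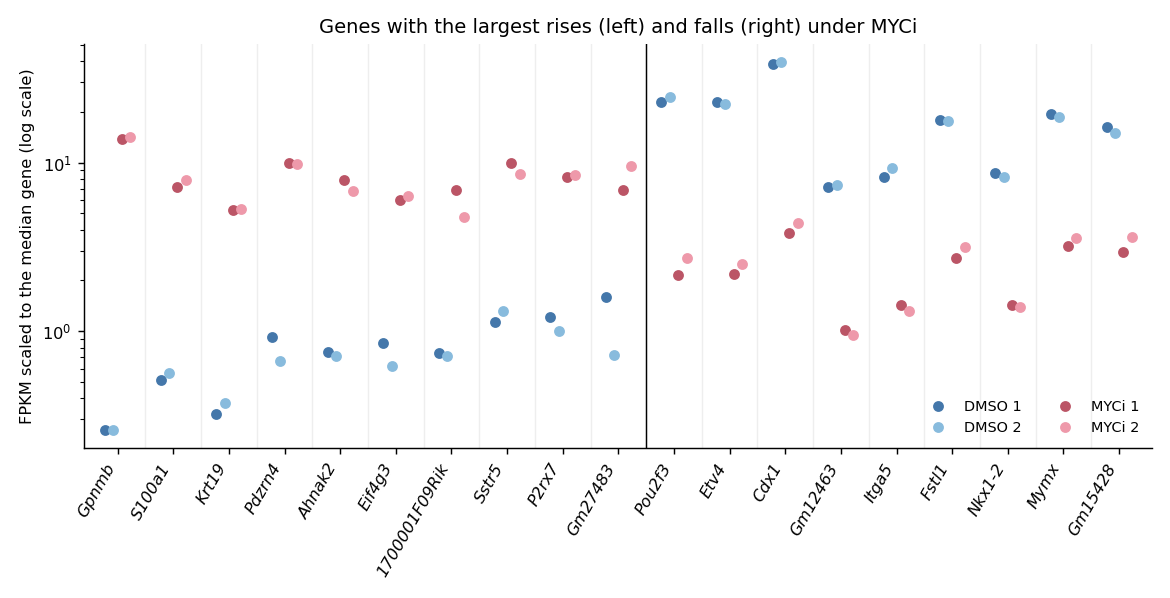
FPKM scaled to the median gene (vertical axis, log scale) of the 10 genes with the largest rise and of 9 genes among those with the largest fall under MYCi, 1 point per library. Gpnmb rises from 0.260 to 14.1 and Etv4 falls from 22.7 to 2.17 at the extremes of their libraries.

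The study has another inducer of quiescence, etomoxir, an inhibitor of fatty acid oxidation (FAOi) set against water, and a spontaneous counterpart, cells sorted for low against high mitochondrial membrane potential. These tables share no library with the MYCi table, and each was scaled to its own median gene. Of 23717 genes tested in both, the MYCi effect was higher than that of FAOi for 2218 (9.35%) and lower for 2216 (9.34%), and without rescaling for 123 and 269. Against low membrane potential it was higher for 3597 of 20259 genes (17.8%) and lower for 5193 (25.6%), and without rescaling for 685 and 13457.

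Myc differed from both. Its fall of 1.40 with MYCi stood against -0.16 with FAOi (adjusted p = 0.00183) and -0.49 in cells of low membrane potential (adjusted p = 0.00226). Mycl and Ccnd1 differed in the other direction from FAOi, at -1.53 for Mycl and -1.997 for Ccnd1 with FAOi against -0.54 and -0.89 with MYCi (adjusted p = 0.00222 and 0.000846). The MYCi effect was higher than that of FAOi, that is a smaller fall, for 29 of 40 genes of G2 and mitosis and for 26 of 54 of replication. It was lower, a smaller rise or a larger fall, for 21 of 34 p53 targets and 17 of 32 ATF4 response genes. Hspa5 was at -0.69 with MYCi and 0.37 with FAOi (adjusted p = 0.000829).

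The lists differed from low membrane potential in different ways. The MYCi effect was lower for 27 of 31 2-cell markers, with Zscan4f at -0.43 against 6.67 (adjusted p = 6e-06). It was lower for 58 of 59 histones, 44 of 54 replication genes, 48 of 67 ribosome assembly genes and 45 of 65 MYC targets. The share over all genes was 25.6%, and the count over all genes went from 5193 to 3272 on the expressed-gene scale. No share was taken for genes of high level, where the MYCi fall was largest. The counts are therefore not shown to be particular to these lists. Of 40 genes of G2 and mitosis the MYCi effect was higher for 10 and lower for 9. Ldha, at -1.98 with MYCi, was at 0.31 in cells of low membrane potential (adjusted p = 2.61e-05), and Ccne1, at -1.83, was at -0.09 (adjusted p = 4.05e-05). Cdkn1a, at 0.06, was at 0.71 (adjusted p = 0.000358). Mat2a, at -0.52, was at -0.35 and the difference did not pass (adjusted p = 0.244), and the differences for Ezh2 (adjusted p = 0.0706), Eed (adjusted p = 0.432) and Suz12 (adjusted p = 0.351) did not pass either.

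**Figure D5:**
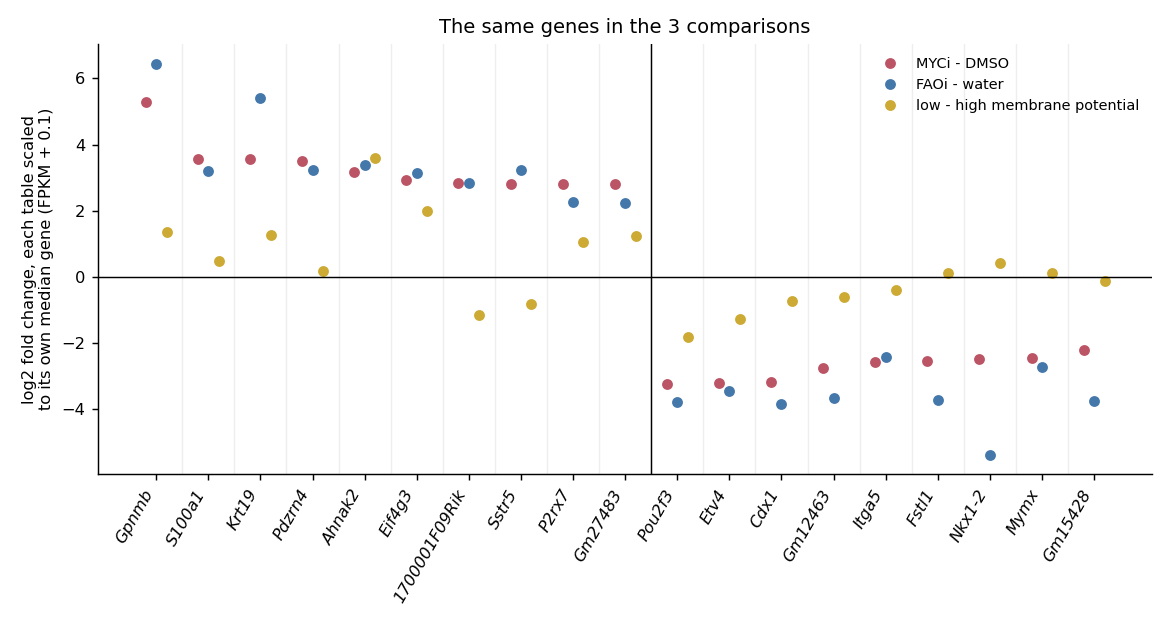
Log2 fold changes (vertical axis) of 19 genes among those with the largest changes under MYCi in that comparison, in FAOi against water and in low against high membrane potential, each table scaled to its own median gene. The genes were chosen on the MYCi values. For Nkx1-2 the values are -2.49, -5.40 and 0.40, and for Ahnak2 3.16, 3.39 and 3.60.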

How the data were processed

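Total RNA of 4 libraries, 2 of MYCi and 2 of DMSO, was depleted of ribosomal RNA and sequenced. The deposited FPKM were made by the authors with edgeR over genes, noncoding transcripts and repeat loci together, after adapter trimming with Trim Galore and cutadapt, TopHat2 2.1.1 alignment to mm10, removal of duplicates with SAMtools 1.9 and featureCounts counting without regard to strand. Multi-mapping reads were shared out, so that near-identical copies share fragments. From these FPKM, Ensembl genes of at least 0.1 FPKM in at least 2 libraries entered a fit of log2(FPKM + 0.1) in limma (version 3.58.1, under R 4.3.3), whose variance prior followed the mean level, and p-values were adjusted by the Benjamini-Hochberg method. The study's own test needs counts and was not run here. Fragments per library were estimated from the steps between low FPKM, and their number limits the precision of low values. Gene positions are from GENCODE vM21 on GRCm38.

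The genes named are the 10 largest changes in each direction among genes of at least 5 FPKM in a group that passed on both the median-gene and deposited scales, up to 4 leading members of each of 46 lists, and a set of named genes. Mlxip, Mxi1, Mnt, Sord, Map3k6, Tert, Trp53inp1, Krt8, Krt18, Cldn4, Cd68, Tfcp2l1, Dppa5a and Elf5 lie outside it and were named after their values were seen. The members and lists were chosen with earlier results of these data known. Differences from FAOi and from low membrane potential were tested as interaction terms. Some genes that the rule names are not reported here. The scripts were tested on simulated data.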

Additional observations from a re-analysis of the deposited data

Results flagged for a closer look

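Among 19 genes with the largest changes under MYCi, 8 differed from the FAOi effect and 17 from that of low membrane potential, by a test of the difference itself. The values that follow are differences in log2 fold change.

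Against FAOi, the rises of Gpnmb and Krt19 were smaller with MYCi, by differences of -1.16 and -1.84. The falls were smaller with MYCi for Pou2f3 (0.56), Cdx1 (0.66), Gm12463 (0.90), Fstl1 (1.17), Nkx1-2 (2.91) and Gm15428 (1.55).

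Against low membrane potential, the MYCi effect was higher for Gpnmb (4), S100a1 (3.18), Krt19 (2.40), Pdzrn4 (3.40), Eif4g3 (1.02), 1700001F09Rik (4.06), Sstr5 (3.72) and P2rx7 (1.84). It was lower for Pou2f3 (-1.33), Etv4 (-1.84), Cdx1 (-2.39), Gm12463 (-2.05), Itga5 (-2.09), Fstl1 (-2.57), Nkx1-2 (-2.81), Mymx (-2.48) and Gm15428 (-1.99). The genes were chosen for large MYCi effects, which by itself favours such differences.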

How the results depend on the processing

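Scaling moved the counts most. Against 6186 genes that rose and 6923 that fell, the deposited scale gave 1921 and 14055, scaling to the summed FPKM 10567 and 3248, and the expressed-gene scale, chosen after seeing the data, 10406 and 3469. With a filter of 1 FPKM, 675 genes rose on the deposited scale. Leaving out 1 library gave 3213 to 4321 that rose and 4801 to 5865 that fell, and on the deposited scale 1067 to 1985 and 11217 to 13500. The difference from FAOi gave 123 higher and 269 lower on deposited values. The difference from low membrane potential gave 685 and 13457 on deposited values, and 3272 lower on the expressed-gene scale.

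Direction turned for some genes of small effect. On the deposited scale Ccnd2 was at -0.19, Cdkn1a at -0.71, Cdkn1b at -0.66, Cdkn1c at 0.00, Ezh1 at -0.70, Tfap2c at -0.49 and Eomes at -0.57. On the expressed-gene scale Mycn was at 0.15, Npm1 at 0.05, Sox2 and Klf4 at 0.08, Eed at 0.12, Suz12 at 0.16 and Asns at 0.15, and with summed FPKM these were 0.16, 0.06, 0.10, 0.10, 0.14, 0.17 and 0.17. Without a filter Cdkn1a and Ezh1 were at -0.01, and with a filter of 1 FPKM Mycn was at 0.01 and Suz12 and Asns at 0.02. With 1 library left out Cdkn1b ranged from -0.04 to 0.23 and Ezh1 from 0.00 to 0.10. Beyond what each scaling does by construction, the cause was not tested.

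Deviations of same-numbered libraries correlated at 0.015, so that the numbers were not taken as pairs. With the replicate number as a block 5742 genes rose and 6423 fell, and on the deposited scale 2079 and 13197. With 2 libraries a group, small changes and genes of low FPKM are the least certain.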

Other observations

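Germline and primitive endoderm genes were not described above. Of 17 tested germline genes 7 rose and 4 fell, and Stra8, which opens meiosis, went from 1.06 and 1.40 FPKM with DMSO to 0.0964 and 0.218 with MYCi (-2.40), while Prdm1, a factor of germ cell specification, rose on all 3 scales (1.15). The 7 became 4 without DMSO 1. Of all genes of 1 to 3 FPKM, where the median level of the germline list lay, 1402 of 4365 rose. Of 13 tested primitive endoderm genes 7 rose and 1 fell, with a median of 0.49 on the median-gene scale and -0.05 as deposited. The 7 became 3 or 4 with any library left out. The median level of this list was 0.558 FPKM. Of all genes of 0.3 to 1 FPKM 1844 of 5017 rose, with medians of 0.44 and -0.20 on the same 2 scales, so that the list median lay near that of its class. Gata6 was the 1 that rose on all 3 scales (1.20), from 0.0494 and 0.0631 FPKM to 0.283 and 0.238, a count of 0 without MYCi 1 or MYCi 2.

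Of 9 aryl hydrocarbon receptor targets 6 rose and 2 fell, and Aldh1a3, a retinaldehyde dehydrogenase, rose on all 3 scales (1.26), a count of 1 that became 0 without MYCi 1 or MYCi 2. The 6 became 3 without MYCi 1 and 2 without MYCi 2. Of 24 PRC1 subunits 9 fell (37.5%, against 42.8% of all genes of 3 to 10 FPKM) and 4 rose. Kdm2b, which recruits a form of PRC1 to CpG islands, fell by 0.78. The 4 became 2 without DMSO 1, DMSO 2 or MYCi 2.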
